A study of Homo sapiens with 13 samples.

Results

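The axon guidance genes described here are ephrins and their Eph receptors, semaphorins, plexins and neuropilins, netrins, slits and their receptors, and the kinases and cytoskeletal proteins that act behind them. The list held 45 human genes chosen by name. Each was represented by the probe set that names it alone and has the highest mean signal over the arrays. Of the 45, 42 had such a probe set among the 11963 genes tested; EPHB2, NTN4 and RGMA had none and were not analysed here. The list was drawn up without genes of chromosome 3 or chromosome 5, so ROBO1 and other slit and plexin partners there were followed separately.

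RNA of cells derived from human non-small cell lung carcinoma (NSCLC) was measured on 13 Affymetrix arrays. The tested groups were 3 lines of high metastatic ability, M5, M4 and M1, with 3 biological replicates each. The lines were isolated from bone metastases in mice after cells had been injected into the heart. They were compared with 4 arrays of the control cells, 2 with a luciferase reporter and 2 without it. Each array held RNA of pooled cell groups, per the series' design text. The sources used here do not name the parental cell line or say whether the metastatic lines carry the reporter. Each metastatic line is 1 isolate, so a difference between 2 lines describes those isolates.

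Axon guidance proteins steer growing nerve fibres by attraction and repulsion, and most of them also act in epithelia, vessels and tumours. Ephrins are ligands tethered to the cell surface that bind Eph receptor tyrosine kinases on neighbouring cells. Both partners signal, and EPHA2 with its ligand EFNA1 is a well studied pair in lung carcinoma. Semaphorins bind plexins, with neuropilins as co-receptors of the secreted class 3 semaphorins. Slits bind the ROBO receptors, and netrins bind DCC, neogenin and the UNC5 receptors.

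The sequences just upstream of 3 genes are shown because the results turn on them: SLITRK5 and EPHA2 were the only members whose signal passed the test, and EFNA1 encodes a ligand of EPHA2. Each run is the 250 bases before the gene's start in RefSeq (GRCh38.p14), written 5′ to 3′ on the gene's strand. They lie at chr13:87671121-87671370 on the plus strand for SLITRK5, at chr1:16156070-16156319 on the minus strand for EPHA2, and at chr1:155127626-155127875 on the plus strand for EFNA1. Capitals mark GC boxes, the letters GGGCGG or their reverse complement CCGCCC.
SLITRK5: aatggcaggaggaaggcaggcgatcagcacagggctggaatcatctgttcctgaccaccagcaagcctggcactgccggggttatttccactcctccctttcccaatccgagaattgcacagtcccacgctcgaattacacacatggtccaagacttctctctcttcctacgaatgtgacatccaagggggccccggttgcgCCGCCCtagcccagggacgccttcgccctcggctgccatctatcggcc
EPHA2: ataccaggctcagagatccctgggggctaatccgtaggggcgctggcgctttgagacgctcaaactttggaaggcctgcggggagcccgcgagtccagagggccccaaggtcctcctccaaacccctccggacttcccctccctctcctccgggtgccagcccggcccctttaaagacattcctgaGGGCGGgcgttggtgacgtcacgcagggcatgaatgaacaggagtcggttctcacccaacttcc
EFNA1: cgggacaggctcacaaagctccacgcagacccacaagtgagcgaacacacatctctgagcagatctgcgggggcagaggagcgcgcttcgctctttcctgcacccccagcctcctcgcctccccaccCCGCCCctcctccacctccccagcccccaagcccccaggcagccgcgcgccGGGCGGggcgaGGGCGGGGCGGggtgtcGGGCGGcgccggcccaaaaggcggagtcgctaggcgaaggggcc
The windows of SLITRK5 and EPHA2 each held 1 GC box, and that of EFNA1 held 5, of which 1 pair overlaps by a base. Of the 42 measured members, 37 had an entry in the promoter table. A GC box on either strand was found in 30 of these 37 windows (81.1%), against 5792 of 9563 windows of the genes on the array that had an entry (60.6%). The CCAAT letters were found in 14 of 37 member windows (37.8%) and in 35.6% of all windows, and TATAAA in 2 of 37 (5.41%) and in 7.93%. The median GC content was 65.6% in the member windows and 63.6% in all. These are matches of letters and were not tested as binding sites.

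The deposited values were log2 signals. The arrays fell into 4 sets by their 62 Affymetrix control probe sets, of which 45 are spike-in probe sets. Whether the others carry differences in the cells' own RNA into these sets was not tested. The labels record no batch, so the 4 sets are called array sets. Set 1 held the first arrays of M5, M4 and M1 and the second array of each control; set 2 held the first array of each control and M1 replicate 2; set 3 held M4 replicates 2 and 3 and M1 replicate 3; and set 4 held M5 replicates 2 and 3. Over all genes the array sets took 63.9% of the sum of squares and the 5 groups 41.9%, which overlap. The set's share was above the group's share in 31 of the 42 members. Sets 3 and 4 held no control array. Each comparison was therefore run in 2 fits with limma, without a block and with the array set as a block. Unless a passage says otherwise, a difference is from the fit without a block. Where only that is given, it is not shown to hold with the block. In the block fit the M5 difference from control rests on the 1 M5 array of set 1. A call means an adjusted p under 0.05 by the Benjamini-Hochberg method, taken over the 11963 genes.

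The probe sets of 9 members were above the median signal on all 13 arrays: EPHA2, EPHB4, EFNA1, EFNA3, SEMA3A, SEMA4C, PLXNB2, DPYSL2 and ABLIM1. Those of 8 members were below the lower quartile on all 13: EPHA7, SEMA3E, PLXNB3, PLXNC1, NTN1, UNC5C, DCC and FYN. For these 8 a difference at the RNA level may lie below what the array can show. Signals of different probe sets do not compare as amounts of RNA. Over the 13 arrays a member's signal ranged over a median of 0.845 log2 units, against 0.648 for all genes.

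**Figure D1:**
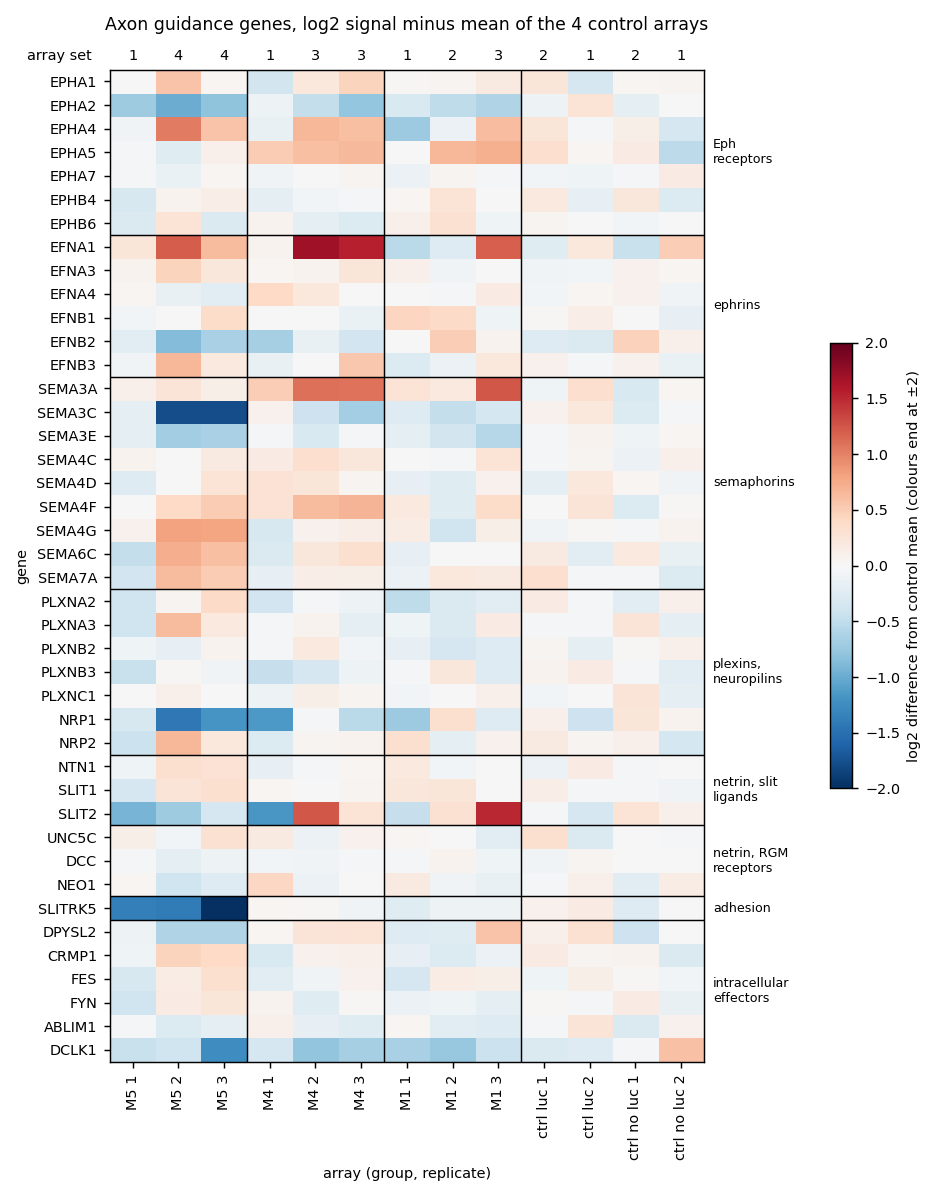
Log2 signal of each of the 42 measured genes (rows, grouped by role) on each of the 13 arrays (columns, grouped as M5, M4, M1 and control), minus the mean of the 4 control arrays. The numbers on top give the array set. SLITRK5 is low on all 3 M5 arrays and EPHA2 is low on M5, while EFNA1, SEMA3A and SEMA3C differ between array sets within a line.

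In M5, 2 of the 42 members were called and both fell: the Slit- and Trk-like adhesion protein SLITRK5 and the Eph receptor EPHA2. The share of all genes called in M5 was 2.37% (284 genes) without a block, 1.85% with a lower signal in M5. With the block the same 2 members were called, where 1.98% of all genes were. The other 40 members did not pass in either fit. At an unadjusted p under 0.05 there were 9 members without the block, 2 higher and 7 lower in M5, against 18% of all genes. With the block there were 6, all lower, against 15.3% of all genes: EPHA2, SLITRK5, SEMA6C, SLIT1, SLIT2 and FYN, of which only EPHA2 and SLITRK5 were among the 9. For 6 members the M5 arrays did not overlap the control arrays, as for 12.2% of all genes: EPHA2, SEMA3E, SLIT2, SLITRK5 and DCLK1 lay below and SEMA4G above. The median difference of the members was 0.0088, with 23 of 42 above 0, against 0.031 for all genes. In the block fit the median was -0.14, with 32 of 42 below 0, against -0.017 for all genes. The sign of the members' median therefore depended on the block, and the difference of 19 of the 42 members had the other sign with it.

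SLITRK5 on chromosome 13 encodes a leucine-rich repeat membrane protein that shapes synapses and neurite growth. Its log2 signal was 6.14, 6.10 and 5.45 on the M5 arrays, 7.54, 7.52 and 7.43 on the M4 arrays and 7.26, 7.39 and 7.40 on the M1 arrays. It was 7.58 and 7.66 on the control arrays with luciferase and 7.23 and 7.51 on those without it. All 3 M5 arrays lay more than a log2 unit below every other array, while M4 and M1 overlapped the control. The means were 5.89 ± 0.39 in M5, 7.50 ± 0.06 in M4 and 7.35 ± 0.08 in M1 (SD, n = 3 each), and 7.50 ± 0.19 in control (SD, n = 4).

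SLITRK5 fell 3.03-fold in M5 against control, a log2 difference of -1.60 ± 0.15 (limma, SE, adjusted p = 0.0004). With the array sets as a block the difference was -1.40 ± 0.21, a 2.64-fold fall (adjusted p = 0.0103). Within set 1 the M5 array differed from the mean of the 2 control arrays by -1.45. The call in M5 against control held in all 12 other settings, 1 of which had a single M5 array, at adjusted p-values up to 0.0314, and in all 13 fits without 1 array. Against M4 the difference was -1.60 (adjusted p = 0.000437) and with the block -1.37 (adjusted p = 0.0165). Against M1 it was -1.45 (adjusted p = 0.00132) and with the block -1.25 (adjusted p = 0.0277). SLITRK5 was the only member called between M5 and M4, where 2.16% of all genes were called (1.85% with the block), and between M5 and M1, where 1.23% were (1.61% with the block). The fit of only the M5 and M1 arrays gave an adjusted p of 0.0662.

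A second probe set of SLITRK5, with a mean log2 signal of 3.44, was -0.34 in M5 against control (limma, adjusted p = 0.156 over 19064 probe sets). The 5 tested genes on each side of SLITRK5 on chromosome 13, taken by order whatever their distance, had a median M5 difference of -0.0024. Their differences lay between -0.20 and 0.88, and 0 of the 10 were called. In M4 and M1 the SLITRK5 differences from control were 0.00075 and -0.15, and neither passed.

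**Figure D2:**
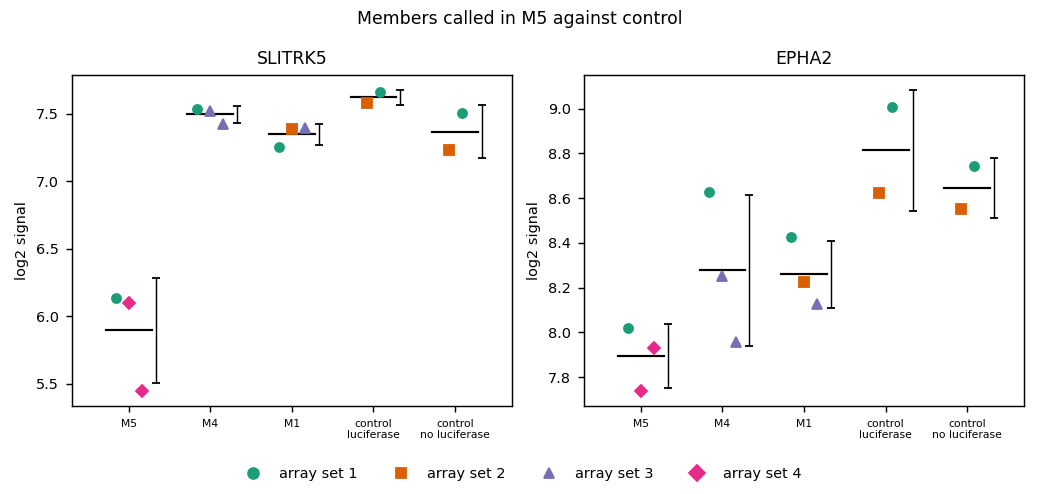
Log2 signal of SLITRK5 and EPHA2 on each array of M5, M4, M1 and the 2 kinds of control. Points are arrays, with colour and shape giving the array set, lines are group means and bars are SDs. The 3 M5 values of SLITRK5 lie at 6.14 or below and all other arrays at 7.23 or above, while the EPHA2 values of M5 sit between 7.74 and 8.02, below the control arrays at 8.55 to 9.01.

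EPHA2 on chromosome 1 encodes the receptor tyrosine kinase for A-class ephrins that is prominent in epithelial cells. Its log2 signal was 8.02, 7.74 and 7.93 in M5, 8.63, 8.25 and 7.96 in M4 and 8.42, 8.23 and 8.13 in M1. It was 8.62 and 9.01 in the control with luciferase and 8.55 and 8.74 in the control without it. Of the 9 metastatic arrays, only M4 replicate 1 at 8.63 lay within the range of the control arrays, and the other 8 lay below it. The means were 7.90 ± 0.14 in M5, 8.28 ± 0.34 in M4 and 8.26 ± 0.15 in M1 (SD, n = 3 each), and 8.73 ± 0.20 in control (SD, n = 4).

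EPHA2 fell 1.78-fold in M5, a log2 difference of -0.83 ± 0.16 (limma, SE, adjusted p = 0.0178). With the block the difference was -0.85 ± 0.15, a 1.80-fold fall (adjusted p = 0.0192). Within set 1 the single M5 array differed from the control mean by -0.86. This call was less firm than that of SLITRK5. It was lost at adjusted p = 0.0946 without M5 replicate 2 and at 0.0762 without M5 replicate 3. It was also lost at 0.0746 without luciferase control replicate 2, at 0.0525 without replicate 1 of the control lacking luciferase and at 0.0744 without its replicate 2. With only the arrays compared the adjusted p was 0.0769, and with either control alone it was 0.0524 (luciferase) or 0.104 (no luciferase). With M5 replicate 1 as the only M5 array it was 0.265. The log2 difference stayed between -0.93 and -0.71 in all these fits.

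In M4 and M1 the EPHA2 differences were -0.45 and -0.47, and neither passed (adjusted p = 0.557 and 1.00). Within set 1 they were -0.25 in M4 and -0.45 in M1, and within set 2 M1 differed by -0.36. M5 did not differ from M4 (-0.38, adjusted p = 0.312) or M1 (-0.36, adjusted p = 0.34) past the threshold, so the lower level is not shown to belong to M5 alone. Over the mean of the 3 lines EPHA2 was -0.59 ± 0.12 (adjusted p = 0.138) without the block. With the block it was called, at -0.51 ± 0.09, a 1.42-fold fall (adjusted p = 0.0473), where 0.527% of all genes were called. EPHA2 has 1 probe set, and the 5 tested genes on each side of EPHA2 had a median M5 difference of -0.050, with 0 called.

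**Figure D3:**
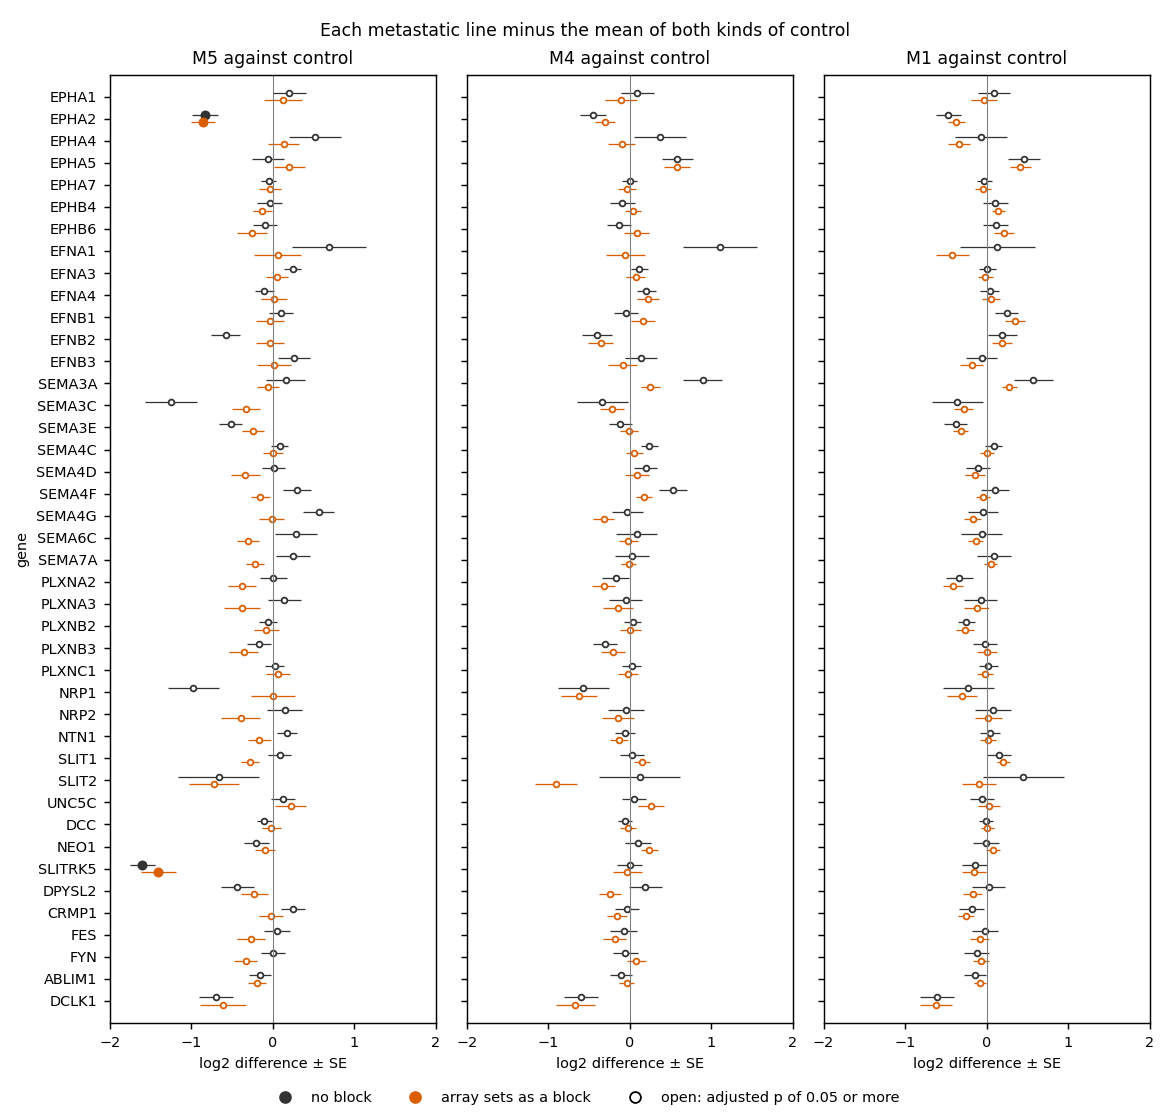
Log2 difference from control, with its SE, of each of the 42 genes in M5, M4 and M1 (panels), without a block (black) and with the array sets as a block (orange). Filled points have an adjusted p under 0.05, which only SLITRK5 and EPHA2 in M5 do in the fits shown. The points of EFNA1, SEMA3A, SEMA3C and NRP1 differ between the 2 fits, while those of EPHA2, SLITRK5 and DCLK1 lie close together.

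The other Eph receptors did not pass in any of the 3 lines. They are EPHA1, EPHA4, EPHA5, EPHA7, EPHB4 and EPHB6, the last of which lacks kinase activity. Their M5 differences lay between -0.10 and 0.52. EPHB4, the receptor of EFNB2 in vessels, was 7.27 ± 0.25 in M5, 7.22 ± 0.08 in M4 and 7.41 ± 0.15 in M1, against 7.31 ± 0.25 in control (SD, n = 3 each and n = 4). These means lay closer together than the largest of the SDs. EPHA5, described after its values were seen, was 5.22, 5.31 and 5.36 in M4 and 5.05, 4.75, 4.87 and 4.19 in control. All 3 M4 arrays lay above the control arrays, but the difference of 0.59 was not called (adjusted p = 0.507), and with the block it was 0.58 (adjusted p = 0.311). The M1 difference was 0.46 (adjusted p = 1.00). A second EPHA5 probe set, with a mean signal of 4.10, did not show these rises, at 0.0023 in M4 and 0.018 in M1.

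The 6 ephrins had 0 calls in M5, M4 and M1. EFNA1, an A-class ephrin bound to the membrane by a lipid anchor, was 7.57, 8.53 and 7.96 in M5, 7.40, 9.02 and 8.89 in M4 and 6.79, 7.07 and 8.52 in M1. It was 7.08 and 7.54 in the control with luciferase and 6.88 and 7.82 in the control without it. The 5 arrays of sets 3 and 4 were the highest, at 7.96 to 9.02, whichever line they held. The M4 difference of 1.11 ± 0.46 was not called (adjusted p = 0.659), and with the block it was -0.055. EFNA3, EFNA4, EFNB1 and EFNB3 differed from control in M5 by -0.11 to 0.26.

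EFNB2, the transmembrane ephrin of arteries, was described after its values were seen. It was 5.64, 4.98 and 5.19 in M5, 5.59 and 5.55 in the control with luciferase and 6.31 and 5.94 in the control without it. Its M5 difference was -0.58 (adjusted p = 0.122) without the block and -0.035 with it. Without the block EFNB2 was -0.40 in M4 and 0.19 in M1. The M4 difference had an unadjusted p under 0.05 by limma in both fits but was called in neither. A second EFNB2 probe set, with a mean signal of 4.99, gave -0.46 in M5, -0.53 in M4 and -0.042 in M1, and none of these passed. Between the 2 controls EFNB2 was -0.56 with luciferase against without it , which is about the size of the M5 difference.

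The semaphorins were 9, and 0 were called in any line. SEMA3A, a secreted repellent that signals through NRP1 and A-class plexins, was 8.52, 9.13 and 9.11 in M4 and 8.31, 8.22 and 9.27 in M1. M5 gave 8.13, 8.28 and 8.15, and the controls 7.95, 8.37, 7.72 and 8.07. All M4 arrays lay above all control arrays, and the 3 arrays of set 3, at 9.11 to 9.27, lay above all others. The M4 difference was 0.89 (adjusted p = 0.343) without the block and 0.25 with it, and within set 1 it was 0.30.

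SEMA3C, a secreted semaphorin with both NRP1 and NRP2 as co-receptors, was described after its values were seen. It was 7.29, 5.72 and 5.73 in M5, 7.58, 7.08 and 6.81 in M4 and 7.23, 7.02 and 7.15 in M1. It was 7.58 and 7.70 in the control with luciferase and 7.22 and 7.47 in the control without it. The 2 arrays of set 4, which held M5 alone, were at least a log2 unit below every other array, while the M5 array of set 1 lay within the control range. The M5 difference was -1.25 ± 0.31 (adjusted p = 0.0603), with the block -0.33, and within set 1 -0.30. It passed when only genes above the median signal were tested (adjusted p = 0.0474), as the mean of its probe sets (-0.74, adjusted p = 0.0397) and with a trended, robust prior (adjusted p = 0.0397). A second SEMA3C probe set, with a mean signal of 4.71, gave -0.24 in M5 (limma, adjusted p = 0.441 over 19064 probe sets). For the 2 arrays of set 4 the line and the array set cannot be told apart.

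The other semaphorins are SEMA3E, a class 3 ligand of PLXND1, SEMA4C, SEMA4D, SEMA4F, SEMA4G, SEMA6C and SEMA7A, which is anchored by lipid. SEMA3E was 3.65 ± 0.29 in M5, 4.05 ± 0.16 in M4 and 3.79 ± 0.19 in M1, against 4.17 ± 0.07 in control, with an M5 difference of -0.51 (adjusted p = 0.0806). Its signal was below the lower quartile on all arrays. SEMA4G, chosen after its values were seen, was 4.80, 5.51 and 5.50 in M5 and 4.63 to 4.78 in control, a difference of 0.56 (adjusted p = 0.15) that was -0.012 with the block. The other 5, SEMA4C, SEMA4D, SEMA4F, SEMA6C and SEMA7A, differed from control in M5 by 0.01 to 0.30 without the block.

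Of the plexins and neuropilins, 0 of 7 were called in any line. PLXNB2, a receptor of class 4 semaphorins in epithelia, was 7.94, 7.86 and 8.09 in M5, 7.99, 8.21 and 7.97 in M4 and 7.85, 7.69 and 7.77 in M1. It was 8.08 and 7.85 in the control with luciferase and 8.04 and 8.13 in the control without it. The arrays of all 3 lines overlapped those of the control. Its M1 difference was -0.25 (adjusted p = 1.00), and the array sets took 1.5% of its sum of squares. PLXNA2, PLXNA3, PLXNB3, PLXNC1 and NRP2 differed from control in M5 by -0.17 to 0.15.

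NRP1, the co-receptor of class 3 semaphorins and of VEGF, was described after its values were seen. It was 6.26, 5.15 and 5.41 in M5, 5.44, 6.54 and 6.05 in M4 and 5.85, 6.90 and 6.32 in M1. It was 6.69 and 6.18 in the control with luciferase and 6.83 and 6.65 in the control without it. The M5 difference was -0.97 (adjusted p = 0.135) without the block and 0.0012 with it, so it had no settled direction. Its other 2 probe sets gave -0.45 and 0.25.

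Among the ligands of the netrin and slit families, SLIT2 had the widest range over the 13 arrays, 2.66 log2 units. SLIT2, the secreted ligand of ROBO receptors, was 5.22, 5.44 and 5.81 in M5, 4.99, 7.40 and 6.43 in M4 and 5.69, 6.47 and 7.66 in M1. It was 6.11 and 5.81 in the control with luciferase and 6.42 and 6.26 in the control without it. The M4 and M1 arrays lay on both sides of the control arrays, and their lowest values came from set 1. The M5 difference was -0.66 ± 0.49 without the block and -0.72 with it, and neither passed. SLIT1 and NTN1 differed from control in M5 by 0.08 and 0.17. A second SLIT1 probe set, with a mean signal of 4.53, gave 0.54 (limma, adjusted p = 0.123 over 19064 probe sets). With the block SLIT1 was lower in M5 at an unadjusted p under 0.05, so its direction was not settled. NEO1, neogenin, a receptor of netrins and of RGM proteins, was 5.31, 4.89 and 5.03 in M5, 5.69, 5.15 and 5.29 in M4 and 5.46, 5.21 and 5.13 in M1, against 5.26, 5.38, 5.05 and 5.42 in control. All 3 lines overlapped the control. The receptors NEO1, DCC and UNC5C differed in M5 by -0.20, -0.10 and 0.12, and DCC and UNC5C were below the lower quartile on all arrays.

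**Figure D4:**
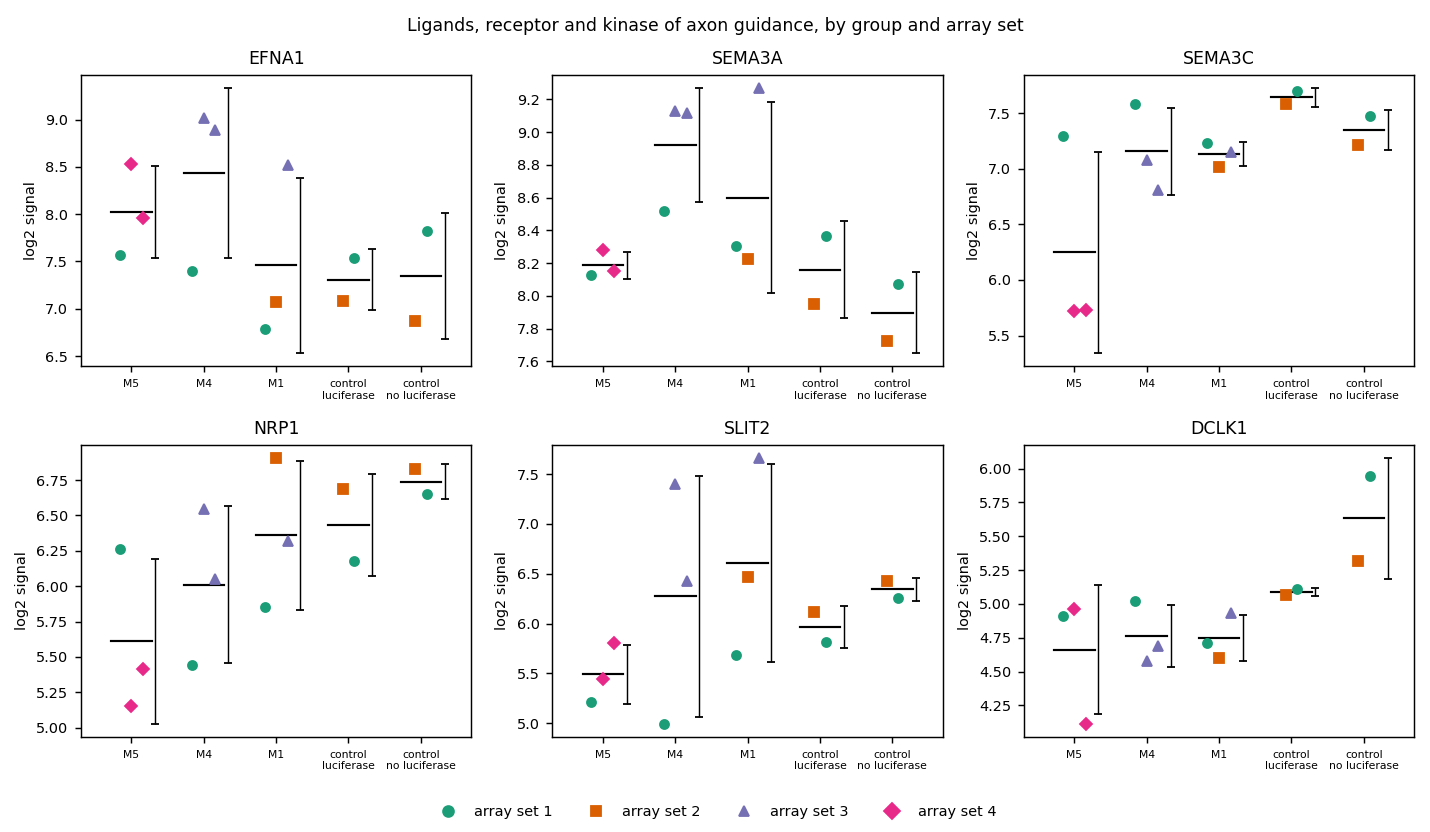
Log2 signal of EFNA1, SEMA3A, SEMA3C, NRP1, SLIT2 and DCLK1 on each array of M5, M4, M1 and the 2 kinds of control. Points are arrays, with colour and shape giving the array set, lines are group means and bars are SDs. The set 3 arrays are the highest for SEMA3A, the set 4 arrays the lowest for SEMA3C, and DCLK1 is lower on the 9 metastatic arrays than on the 4 control arrays.

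The intracellular proteins were DPYSL2 and CRMP1, collapsin response mediators that act on microtubules downstream of SEMA3A, the kinases FES, FYN and DCLK1, and ABLIM1, an actin-binding protein. None of these 6 was called in any line by limma. At an unadjusted p under 0.05 DCLK1 alone passed without the block, in each line. DPYSL2 was 9.46, 8.95 and 8.95 in M5, 9.60, 9.81 and 9.84 in M4 and 9.30, 9.31 and 10.13 in M1, against 9.14 to 9.87 in control. Its M5 difference was -0.44 (adjusted p = 0.286), and -0.22 with the block. ABLIM1 differed by -0.16, -0.10 and -0.14 in M5, M4 and M1. A second ABLIM1 probe set, with a mean signal of 6.49, gave larger differences of -0.54, -0.76 and -0.39. None of these passed (limma over 19064 probe sets, adjusted p = 0.402 in M5 and 0.703 in M4).

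DCLK1, a microtubule-associated kinase of migrating neurons, was singled out after its values were seen. It was 4.91, 4.96 and 4.11 in M5, 5.02, 4.58 and 4.69 in M4 and 4.71, 4.60 and 4.93 in M1. It was 5.07 and 5.11 in the control with luciferase and 5.32 and 5.95 in the control without it. It was the only member whose 9 metastatic arrays all lay below its 4 control arrays, as held for 0.326% of all genes. The gap was small, since the highest M4 array was at 5.02 and the lowest control array at 5.07. The difference over the mean of the lines was -0.64 ± 0.16 (adjusted p = 0.277), with the block adjusted p = 0.219, so it was not called. The controls differed too, by -0.54 with luciferase against without it. Set against the luciferase control alone the mean of the lines was -0.36, and against the other control alone -0.91. A second DCLK1 probe set, with a mean signal of 3.50, differed by -0.044.

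M4 and M1 had 0 members called in both fits by limma. In M4 the share of all genes called was 0.092% (0.15% with the block), and 8 members had an unadjusted p under 0.05 against 6.91% of all genes (10 members against 7.01% with the block). The M4 arrays of 5 members did not overlap the control arrays, as for 11.4% of all genes: EPHA5, SEMA3A, SEMA4C and SEMA4F lay above and DCLK1 below. In M1 0.0251% of all genes were called (0.234% with the block), and 6 members had an unadjusted p under 0.05 against 3.08% of all genes. With the block there were 12 in M1 against 9.51% of all genes, and EPHA2, EPHA5, SEMA3A, SEMA3E, PLXNB2 and DCLK1 were in both counts. The M1 arrays of 4 members lay below all control arrays, EPHA2, SEMA3E, PLXNA2 and DCLK1, while 5.94% of all genes did not overlap. The members' median difference was -0.00022 in M4 and -0.016 in M1, against -0.0011 and -0.0078 for all genes. With the block it was -0.033 and -0.058, against -0.012 and -0.015. All comparisons of a line with control share the same control arrays.

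Over the mean of the 3 lines 0 members were called without the block, where 0.0251% of all genes were, and 8 had an unadjusted p under 0.05 against 8.16% of all genes (8 against 9.69% with the block). The members' median was 0.0073 without the block, with 22 of 42 above 0, against 0.0081 for all genes. With the block it was -0.11, with 30 of 42 below 0, against -0.015 for all genes. Between M4 and M1, 0 members were called in both fits, where 0.0251% of all genes were without the block and 0.117% with it.

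Leaving out M5 replicate 1, the only M5 array that shares a set with other groups, gave 13 members called in M5 against control, among 3062 genes in all. They were EPHA2, SLITRK5, EFNA3, EFNB2, SEMA3C, SEMA3E, SEMA4G, SEMA6C, SEMA7A, NRP1, DPYSL2, CRMP1 and DCLK1. Without it, M5 lies in set 4 alone and the line and the array set cannot be told apart. With that array as the only M5 array, 1 member was called, SLITRK5, among 38 genes in all. In that fit the spread comes from the other groups, and the lone array is assumed to vary as they do.

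The luciferase reporter itself was tested as control with against control without it, 2 arrays each. By limma 0 members and 0 genes (0%) were called without the block, and with the block 0 members and 0.0167% of all genes were. At an unadjusted p under 0.05 there was 1 member, EFNB2, against 1.29% of all genes without the block. With the block there were 8 against 5.93%: EPHA5, SEMA3A, SEMA4F, SEMA7A, DPYSL2 and ABLIM1 were higher with luciferase, and EFNB2 and DCLK1 lower. The member differences lay between -0.56 and 0.42, with a median of 0.042 against 0.0082 for all genes.

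Other genes of the same families were read from 2 lists. The first held 50 further family members and the second 50 signalling proteins behind the receptors, of which 32 and 41 were measured. In M5 against control 2 of the 32 family members fell and 0 rose, and of the 41 signalling proteins 2 fell and 1 rose, beside 2.37% of all genes called. Their 4 falls were ROBO1, PLXNA1, NCK1 and PAK2. In M4 and M1 0 of either list were called without the block. The median M5 difference was 0.092 over the family members and -0.038 over the signalling proteins, against 0.031 over all genes. With the block the medians were -0.16 and -0.072, against -0.017, so that of the family members changed sign.

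ROBO1, the receptor of slits, fell most. It was 4.59, 4.47 and 4.83 in M5, 6.11, 6.26 and 5.98 in M4 and 6.07, 6.91 and 6.18 in M1. It was 6.48 and 6.49 in the control with luciferase and 6.61 and 6.54 in the control without it. All 3 M5 arrays were more than a log2 unit below every other array. ROBO1 fell 3.73-fold in M5, a log2 difference of -1.90 ± 0.17 (limma, SE, adjusted p = 0.0004), and with the block by -1.78 (adjusted p = 0.00549). It was also -1.49 against M4 (adjusted p = 0.00163) and -1.76 against M1 (adjusted p = 0.00119). Against control ROBO1 was -0.41 in M4 and -0.14 in M1, and with the block -0.21 and -0.067, none of them called. The M4 arrays of ROBO1 lay below all control arrays, while 11.4% of all genes did not overlap between M4 and control.

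PLXNA1, an A-class plexin that carries SEMA3A signals, fell 1.70-fold, by -0.77 (adjusted p = 0.00723), and with the block by -0.69 (adjusted p = 0.044). It was 6.88 ± 0.12 in M5 and 7.64 ± 0.01 in control. Its call was lost as the mean of its probe sets (-0.42, adjusted p = 0.0524), with the block from the spike-in probe sets (adjusted p = 0.0612) and with M5 replicate 1 alone (adjusted p = 0.159). NCK1, an adaptor that links Eph receptors to actin, was -0.65 (adjusted p = 0.0113) and with the block -0.38 (adjusted p = 0.149). PAK2, a kinase activated by RAC and CDC42, was -0.93 (adjusted p = 0.0429) and with the block -0.58 (adjusted p = 0.0974). RRAS, a small GTPase inactivated by plexins, was the 1 that rose, by 0.73 (adjusted p = 0.0363), and with the block it was 0.34 (adjusted p = 0.214).

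The calls of NCK1, PAK2 and RRAS were thus lost with the block, and each was lost without single arrays too. NCK1 lost its call without M5 replicate 2, M5 replicate 3 or the first array of either control, at adjusted p-values up to 0.0602 over 13 such fits. PAK2 kept its call in 2 of these 13 fits and RRAS in 5, with adjusted p-values up to 0.205 and 0.178. ROBO1 and PLXNA1 kept theirs in all 13. With the block MICAL2, an enzyme that oxidises actin downstream of plexins, was called in M1 against control (0.94, adjusted p = 0.0108) and over the mean of the lines (0.74, adjusted p = 0.0209). Without the block these were 1.03 (adjusted p = 0.232) and 0.65 (adjusted p = 0.205). In M4 MICAL2 was 1.06 (adjusted p = 0.0845), and 0.89 with the block (adjusted p = 0.0612). The controls differed by -0.61 with luciferase against without it, and against the control without luciferase alone the mean of the lines was 0.34. Between lines with the block, RRAS was called in M5 against M4 (0.60, adjusted p = 0.0484) and NTN3, a netrin, in M5 against M1 (-0.88, adjusted p = 0.031).

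The 4 genes that fell all lie on chromosome 3. The 2 lists hold 17 measured genes of chromosome 3 and 56 of other chromosomes. Without the block 4 of the 17 fell, while of the 56, 0 fell and 1 rose. With the block 2 of the 17 fell, and 0 of the 56 fell or rose. The median M5 difference of the 17 was -0.053 without the block and -0.22 with it, and that of the 56 was 0.053 and -0.047. Over all genes, without the block, chromosome 3 had a median M5 difference of -0.29 over 655 genes. Of these 655 genes 141 fell in that fit, beside 4 of the 17 listed. In all, 221 genes fell in M5 in that fit. In M4 and M1 the median of the chromosome 3 genes was 0.0033 and -0.013. SLITRK5 and EPHA2 are on chromosomes 13 and 1.

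**Figure D5:**
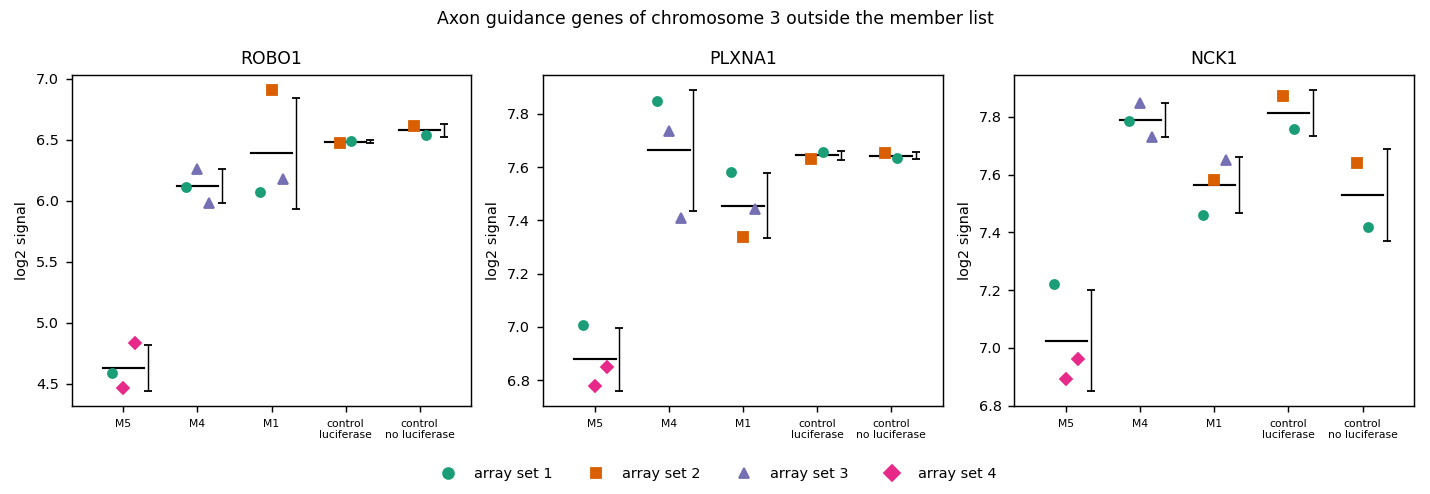
Log2 signal of ROBO1, PLXNA1 and NCK1, which lie on chromosome 3 and are not among the 42 genes, on each array of M5, M4, M1 and the 2 kinds of control. Points are arrays, with colour and shape giving the array set, lines are group means and bars are SDs. The M5 arrays are the lowest in all 3 panels, at 4.83 or below for ROBO1 against 5.98 or above on the other arrays.

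Markers of the cells were read on the same arrays. The keratins KRT7, KRT8, KRT18 and KRT19 and MUC1 were above the median on all 13 arrays, while EPCAM and CDH1, 2 further epithelial markers of the 8, were below the lower quartile on all. Of 4 measured lung lineage genes, SFTPC was above the median on all arrays and SCGB1A1 below the lower quartile on all. The leukocyte markers PTPRC and CD3E and the endothelial markers VWF and CDH5 were below the lower quartile on all arrays. The collagens COL1A1 and COL3A1 of a list of 6 fibroblast genes were above the median on all, while LUM of that list was below the lower quartile on all. The summed linear signal of the 8 epithelial markers was 7490 to 9402 in M5, 7953 to 9002 in M4 and 7634 to 10111 in M1. In control it was 9676 to 10122, above every M5 and M4 array, while the highest M1 array lay within the control range. The summed signal of the fibroblast list was 565 to 782 in M5, 900 to 1338 in M4 and 1141 to 2189 in M1, against 667 to 908 in control. The 3 measured neuronal markers, of which TUBB3 was above the median and S100B below the lower quartile on all arrays, summed to 2079 to 3325 in M5, 2500 to 3090 in M4 and 2439 to 3111 in M1, against 3235 to 3401 in control. None of these markers was called in M5, and their part in the results was not tested. In these bulk samples fewer cells that express a gene and less RNA per cell cannot be told apart.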

How the data were processed

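The deposited table holds log2 signals of 22277 probe sets on 13 arrays. The submitters' processing notes name RMA as the authors' method, with no version or further steps. The scanned images were not used here. Of the probe sets, 62 are Affymetrix controls, 19064 name 1 gene, 1043 name several and 2108 none by the platform table. The probe set with the highest mean stood for each of the 11963 genes, of which 11954 matched RefSeq (GRCh38.p14), all 42 measured members among them; 19 members had several probe sets. No filter on dim genes was applied.

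The tests used limma 3.58.1 under R 4.3.3 (lmFit on 5 group means, eBayes, 8 comparisons). Control was the mean of both kinds, and the mean of the lines weighted M5, M4 and M1 equally. Array sets came from Ward clustering of the 62 control probe sets. Errors are limma's SEs beside differences and SDs beside signals, and a fold is the antilog of a log2 difference. The code was tested on simulated data. Samples are separate cultures only as far as the labels call them biological replicates, and their number limits the precision.

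The members, both further lists and the naming rule were chosen with earlier results of these data known, so no list is independent evidence. Values per array were given for members called in either fit and for the member with the highest signal in a role. Further members named with values were picked with those values in view. Alternatives were other blocks, probe-set rules, normalizations, controls, priors and filters, and leaving out each array. Same-numbered arrays did not deviate together as a rule: 7 of 23 pairs had a correlation over 0.1, between -0.51 and 0.53. Some of them share an array set, as the first arrays of M5, M4 and M1 do.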

Additional observations from a re-analysis of the deposited data

Results flagged for a closer look

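Differences of M5 from the other 2 lines passed the test for 5 genes, 1 member and 4 of the further lists, in the fit without a block. SLITRK5 was -1.60 in M5 against M4 and -1.45 against M1. ROBO1 was -1.49 against M4 and -1.76 against M1, PLXNA1 -0.79 and -0.58, and NCK1 -0.76 and -0.54. MICAL2 was -1.20 against M4 and -1.17 against M1. With the array sets as a block SLITRK5 and ROBO1 passed against both lines, PLXNA1 passed against M4 alone, and NCK1 and MICAL2 passed against neither. With the block 2 further genes passed, RRAS against M4 and NTN3 against M1. No sample stood apart among the 4 control arrays for any of the 42 members (0 of 42 by Dixon's test).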

How the results depend on the processing

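Counts of members called in M4 or M1 against control, in M4 against M1 and between the controls were 0 under every alternative run. The M5 count of 2 was 1 with the replicate block, with only the arrays compared, with either control alone and with M5 replicate 1 alone (added after seeing the data), SLITRK5 being the 1 each time, and 3, with SEMA3C, under the mean of probe sets, the filter on dim genes and the trended robust prior. Leaving out 1 array it ran between 1 and 13. The mean-of-lines count of 0 was 1 with either control-probe-set block (EPHA2) and 1 with M5 replicate 1 alone (SLITRK5), and 0 to 5 leaving out 1 array. The M5 against M1 count of 1 was 0 with only the arrays compared and 1 to 9 leaving out 1 array; that of M5 against M4 was 1 to 8. The highest counts all came without M5 replicate 1, the fit in which M5 against control called 13 members among 3062 genes in all. For the other comparisons the number of all genes called when leaving out 1 array is not given here. Their member counts in those fits therefore cannot be set against the share of all genes. All genes called in M5 numbered 284, against 237 with the control-probe-set block, 106 with the replicate block, 29 with only the arrays compared, 49 and 63 with the luciferase or the other control alone, 38 with M5 replicate 1 alone and 54 to 3062 leaving out 1 array. Over the mean of the lines 3 genes became 63 with the block. Among the differences recomputed under every alternative, directions reversed for these, none of them called: EFNA1 in M4 to -0.055 and NRP1 in M5 to 0.0012 with the block; EPHA2 in M4 against M1 to -0.016 with quantile normalization, and between -0.16 and 0.18 leaving out 1 array; and SLITRK5 in M4 to -0.13 against the luciferase control, -0.032 with the block, -0.060 with the mean of probe sets, -0.019 with median centring and -0.018 with quantile normalization, and between -0.068 and 0.070 leaving out 1 array. The cause of these changes was not tested. The replicate numbers were not taken to pair the samples, and the replicate block left SLITRK5 called in M5 and not EPHA2 (adjusted p = 0.0633). Signals near background limit what can be seen for the 8 dimmest members.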
